A study of Mus musculus with 19 samples.

Results

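The smooth muscle contractile genes are 9 genes that encode the force-generating and filament-anchoring proteins of smooth muscle: Acta2, Actg2, Myh11, Myl9, Mylk, Tagln, Cnn1, Lmod1 and Des. They were followed in the lung of mice given benzo(a)pyrene, a polycyclic aromatic hydrocarbon formed in combustion. Members were taken as the array probes whose accession belongs to 1 of the 9 symbols. Probes were found for 8 of the 9 genes, among 19315 genes tested (12324 with a symbol and 6991 known by accession alone), and Myl9, a light chain of smooth muscle myosin, is not analysed here. In the RefSeq annotation of GRCm38.p6 Acta2 lies at chr19:34240336-34255585, Actg2 at chr6:83512909-83536251, Cnn1 at chr9:22099221-22109221, Tagln at chr9:45929628-45936058 and Des at chr1:75360292-75368579. Lmod1 lies at chr1:135324813-135368065, Myh11 at chr16:14194527-14292188 and Mylk at chr16:34745199-35002436. Some members had several probes, so that 12 probes stand for the 8 genes, and each gene is given by its probe with the brightest lung signal.

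All groups were male MutaMouse animals of the transgenic strain 40.6, 25 weeks old, treated by oral gavage once a day for 28 days and sampled 3 days after the last dose. There were 5 control mice (mice 1 to 5, given vehicle without benzo(a)pyrene), 5 mice at 25 mg/kg/day (mice 6 to 10), 4 mice at 50 mg/kg/day (mice 12 to 15) and 5 mice at 75 mg/kg/day (mice 16 to 20). Each mouse had its own 2-colour array, with lung RNA in Cy5 and a universal mouse reference RNA, prepared from 11 cell lines, in Cy3. Every value below is a log2 ratio of lung over that reference, so it gives no level of one gene against another. The sample was a part of the lung with all its cell types, in which fewer cells of a type and less RNA per cell cannot be told apart. Which part was taken is not given in the labels.

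Smooth muscle in the lung wraps the bronchi and bronchioles, where it sets airway calibre, and the walls of pulmonary arteries and veins. Calcium bound to calmodulin activates myosin light chain kinase, which phosphorylates the myosin light chain and lets myosin heavy chain pull on filaments of smooth muscle actin. Calponin and transgelin bind those filaments, leiomodin nucleates them, and desmin ties them to the rest of the cell. Serum response factor (SRF), with its coactivator myocardin, drives many of these genes through CArG boxes, a motif of 10 bases that starts with CC, ends with GG and has 6 bases of A or T between them.

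The upstream sequence is shown for Acta2 because it was the member that passed the test at the highest dose. RefSeq promoter windows on GRCm38.p6 were held for 6 of the 9 genes (Acta2, Cnn1, Des, Lmod1, Mylk and Myl9), and the 250 bases before each start site were searched on both strands. CArG boxes with 1 G or C allowed in the core (CArG-like) were counted separately from perfect ones. Acta2, on the minus strand of chromosome 19, held 2 CArG-like matches, and positions are counted back from the start site in the RefSeq window. Both matches lie inside the gene span given above, so that start site is not the outer end of the span. The base positions are those of the motif, and the coordinates those of the whole stretch. The motif is in capitals in each stretch of 30 bases, written 5′ to 3′ along the gene:
Acta2, bases -84 to -75, chr19:34255438-34255467: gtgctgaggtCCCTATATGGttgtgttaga
Acta2, bases -34 to -25, chr19:34255388-34255417: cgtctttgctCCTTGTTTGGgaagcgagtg
Of the 32851 RefSeq windows of this length, 7.24% held a CArG-like match and 1.47% a perfect CArG box. Myl9 held both kinds, and no match was found in the same window of Cnn1, Des, Lmod1 or Mylk. A match is a description of these letters and says nothing of the factor's binding.

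The tissue and the arrays were checked first. In the controls, all 10 alveolar epithelial markers were well above background on all arrays, from a log2 ratio of 7.09 ± 0.47 (SD, n = 5) for the surfactant gene Sftpc to 0.35 ± 0.16 for Pdpn. All 12 member probes were well above background on 19 of 19 arrays in both channels. Between 45.6% and 62.9% of lung spots passed the scanner's background test, and the number of mice limits the precision. The arrays lay on 6 slides, and the scanner software's quality report marked controls 1 and 3, mouse 12 and mouse 20 for evaluation. Control 5 stood apart from the other mice in skeletal muscle genes: the mean of 12 skeletal muscle markers was 4.56 there and between -0.93 and 0.39 in the other 18 mice.

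At 75 mg/kg/day, 1 of the 8 members fell and none rose. That gene was Acta2, smooth muscle alpha-actin, which was 1.54-fold lower than in controls. Across all genes the same comparison called 1.53% lower and 4.17% in either direction (limma, adjusted p under 0.05, on group means fitted over all 19 arrays). At 25 mg/kg/day, 0 of the 8 members were called, where 0.0518% of all genes were. At 50 mg/kg/day again 0 of 8 were called, where 1.09% of all genes were. At an unadjusted p under 0.05 by limma there were 4 members at 25 mg/kg/day (3 lower and 1 higher), against 7.81% of all genes. There was 1 member, higher, at 50 mg/kg/day against 12.7% of all genes, and there were 3 at 75 mg/kg/day (2 lower and 1 higher) against 17.3%. The median difference of the 8 members from control (log2) was -0.41, 0.04 and -0.39 at the 3 doses in order, beside 0.01, -0.00 and -0.01 over all genes. Of the 8 differences, 7 were below 0 at 25 and at 75 mg/kg/day, the exception being Mylk, and 4 were below 0 at 50 mg/kg/day. Part of these medians rested on control 5, without which they were -0.26, 0.13 and -0.16. The treated and control ranges of every member overlapped at each dose, but the share of all genes with separate ranges is not given here.

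**Figure D1:**
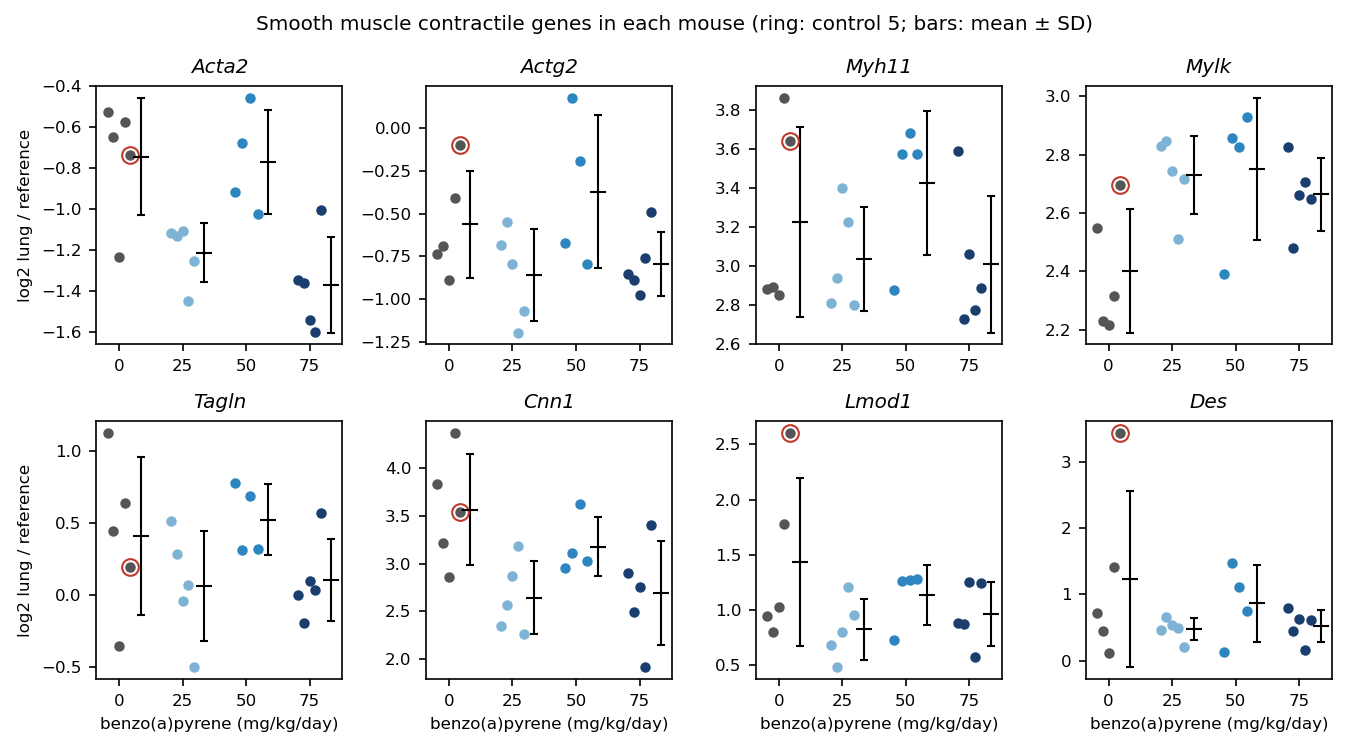
Log2 ratio of lung over reference RNA (vertical axis, a separate scale for each gene) for the 8 measured genes by benzo(a)pyrene dose in mg/kg/day. Each point is 1 mouse, black bars are the mean ± SD, and red rings mark control 5. Acta2 at 75 mg/kg/day lies between -1.60 and -1.003. Its fall from control turned sign under median centring (0.22), where the median of all genes was 0.35. Control 5 is the highest mouse for Des (3.44) and Lmod1 (2.61).

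Acta2 encodes the actin isoform that vascular and airway smooth muscle cells and activated fibroblasts build into contractile filaments. In controls 1 to 5 its log2 ratio was -0.53, -0.65, -1.24, -0.57 and -0.74. At 75 mg/kg/day mice 16 to 20 had -1.34, -1.36, -1.54, -1.60 and -1.003. All 5 treated mice were below the control mean of -0.74 ± 0.29 (SD, n = 5), and the ranges overlapped through control 3 and mouse 20, both among the arrays marked for evaluation. Relative to control Acta2 fell by 0.62 ± 0.14 (SE) on the log2 scale (limma adjusted p = 0.0139 over 19315 genes), but the sign turned under median centring in place of loess. There the difference was 0.22, with the median of all genes shifted to 0.35, so that Acta2 lay -0.13 from that median. With slide as a block the difference was -0.60 (adjusted p = 0.0181), and within the 4 slides that held both groups it was -0.95, -0.13, -0.96 and -0.48. With 1 mouse left out at a time the adjusted p ranged from 0.00178 to 0.047.

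At 25 mg/kg/day Acta2 was -1.12, -1.13, -1.10, -1.45 and -1.25 in mice 6 to 10. These 5 mice lay below 4 of the 5 controls, and control 3 at -1.24 fell inside their range. The difference of -0.47 ± 0.14 (SE) did not pass the test (limma adjusted p = 0.391). Mice 12 to 15 at 50 mg/kg/day had -0.92, -0.68, -0.46 and -1.03, a spread that covered the control mean. Their difference from control was -0.03 ± 0.15 (adjusted p = 0.965). The difference was thus nearest to 0 at the middle dose, and 75 minus 25 mg/kg/day was -0.16 ± 0.14 (adjusted p = 0.964). No member was called in that comparison, where 0.57% of all genes were (6.85% at an unadjusted p under 0.05, against 0 of 8 members). None was called for a slope on dose either, where 4.65% of all genes were (17.7% at an unadjusted p under 0.05, against 2 of 8 members).

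The 3 probes for Acta2 did not move alike. The reported probe, A_52_P420504, is spotted 10 times on the array and each of the others once, and all 3 carry the same RefSeq accession. Probe A_52_P210078 read -0.08, -0.20, -0.36, 0.21 and -0.25 in the controls and -0.73, -0.55, -0.44, -1.02 and -0.18 at 75 mg/kg/day. Mouse 20 lay within the controls and the other 4 treated mice lay below all of them. The difference of this probe at 75 mg/kg/day was -0.45 ± 0.13 (SE, limma adjusted p = 0.0613 over 24501 probes). It was a dim probe, with lung intensities above background from 35 (mouse 19) to 186 (control 4). The reported probe ran from 2004 (mouse 6) to 6425 (control 4), so the 2 are not equal measures. Probe A_51_P450957 read -1.43, -1.09, -0.81, -1.04 and 1.36 in the controls and -0.84, -0.70, -1.02, -0.99 and -1.75 at 75 mg/kg/day. Only control 5 was far from the treated mice on that probe. Its difference was -0.46 ± 0.37 with control 5 (adjusted p = 0.576) and 0.03 ± 0.20 without it. In control 5 the skeletal muscle actin gene Acta1 stood at 6.43, against -2.46 to 1.96 in the other 18 mice, and the part of that transcript in the reading of this Acta2 probe was not tested. The reported probe gave -0.62 without control 5 (adjusted p = 0.0258 over the probes). Averaging all probes of each gene, the Acta2 difference was -0.51 (adjusted p = 0.0407).

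**Figure D2:**
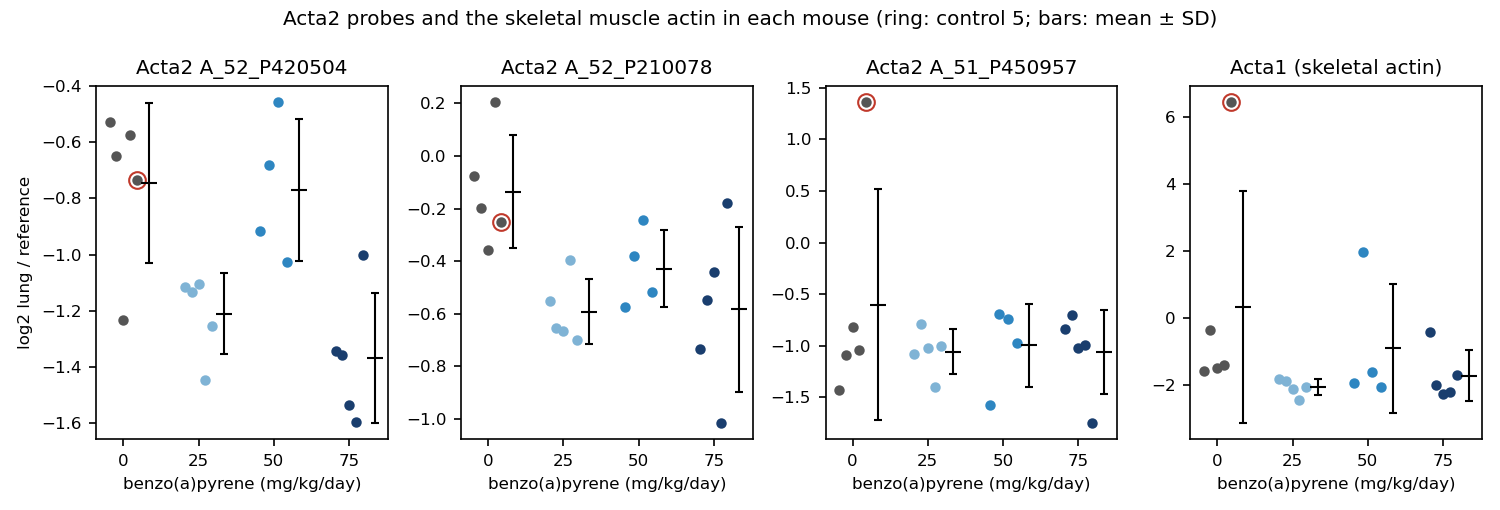
Log2 ratio of lung over reference RNA for the 3 Acta2 probes and for Acta1, the skeletal muscle actin, by benzo(a)pyrene dose in mg/kg/day (vertical axes differ). Each point is 1 mouse, black bars are the mean ± SD and red rings mark control 5, which reads 1.36 on probe A_51_P450957 and 6.43 for Acta1. The fall of the left probe at 75 mg/kg/day turned sign under median centring (0.22), where the median of all genes was 0.35.

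Actg2 encodes smooth muscle gamma-actin, the actin isoform of visceral smooth muscle. It was -0.73, -0.69, -0.89, -0.41 and -0.10 in the controls and -0.85, -0.89, -0.98, -0.76 and -0.49 at 75 mg/kg/day. The ranges overlapped over most of their length, and control 5 was the highest of these 10 mice. Its differences from control were -0.29 ± 0.18 (SE) at 25, 0.19 ± 0.19 at 50 and -0.23 ± 0.18 at 75 mg/kg/day (limma adjusted p = 0.734, 0.734 and 0.559). Slide had a larger r2 (0.705) than dose group (0.319). These come from separate fits with more slides (6) than dose groups, and the doses were not balanced over slides, so they are not like measures.

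Myh11 encodes the smooth muscle myosin heavy chain, the motor and the most restricted marker of mature smooth muscle. Controls 1 to 3 had 2.88, 2.89 and 2.85, while controls 4 and 5 had 3.86 and 3.64. The mice at 75 mg/kg/day had 3.59, 2.73, 3.06, 2.77 and 2.89, and those at 50 mg/kg/day 2.88, 3.57, 3.68 and 3.57. High and low mice occurred in both treated groups as in the controls. The differences were -0.19 ± 0.22, 0.20 ± 0.23 and -0.22 ± 0.22 (SE) at the 3 doses in order, with limma adjusted p of 0.885, 0.782 and 0.667. Slide had an r2 of 0.657 and dose group 0.19, with the same limit as for Actg2. At 75 mg/kg/day the 95% interval of the Myh11 difference ran from -0.67 to 0.24.

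Mylk encodes myosin light chain kinase, which is also made in long form by endothelial cells, and it was the member that lay above control at all 3 doses without passing the test. Its controls were 2.55, 2.23, 2.22, 2.32 and 2.69. Mice at 25 mg/kg/day had 2.83, 2.85, 2.75, 2.51 and 2.72, and mice at 75 mg/kg/day had 2.83, 2.48, 2.66, 2.71 and 2.65. Controls 1 and 5 reached into both treated ranges, and all 10 treated mice lay above the control mean of 2.40 ± 0.21 (SD, n = 5). At 50 mg/kg/day the values were 2.39, 2.86, 2.83 and 2.93, where mouse 12 alone was below that mean. The differences were 0.33 ± 0.11, 0.35 ± 0.12 and 0.26 ± 0.11 (SE; limma adjusted p = 0.454, 0.189 and 0.227), higher on 4 of 4, 2 of 3 and 4 of 4 slides. The other Mylk probe gave smaller differences of 0.16, 0.17 and 0.07.

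Tagln encodes transgelin, an actin-binding protein abundant in smooth muscle. Its controls ranged from -0.36 in control 3 to 1.13 in control 1, the mice at 25 mg/kg/day from -0.51 to 0.51, those at 50 mg/kg/day from 0.31 to 0.78 and those at 75 mg/kg/day from -0.20 to 0.57. Of the treated mice, mouse 10 alone lay outside the control range. The differences were -0.35 ± 0.23, 0.11 ± 0.24 and -0.31 ± 0.23 (SE; limma adjusted p = 0.755, 0.898 and 0.526). A second probe gave -0.06, 0.19 and 0.05. Of the 8 genes Tagln had the largest r2 with slide (0.733).

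Cnn1 encodes calponin 1, which binds actin and damps the myosin ATPase, and it had the largest difference among the members. In controls 1 to 5 it was 3.84, 3.22, 2.86, 4.38 and 3.54. At 25 mg/kg/day it was 2.34, 2.56, 2.87, 3.18 and 2.26. At 50 mg/kg/day it was 2.95, 3.11, 3.63 and 3.03, and at 75 mg/kg/day it was 2.90, 2.49, 2.75, 1.91 and 3.41. All 10 mice of the lowest and highest doses lay below the control mean of 3.57 ± 0.58 (SD, n = 5), and the ranges overlapped: mice 8, 9, 16 and 20 lay above control 3, and mouse 20 also above control 2. The differences were -0.92 ± 0.27, -0.39 ± 0.29 and -0.88 ± 0.27 (SE), with limma adjusted p of 0.391, 0.62 and 0.079, and none passed the test.

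The Cnn1 difference at 75 mg/kg/day was near the threshold and crossed it under 7 of 32 alternatives, of which scaling between arrays (Aquantile) leaves every ratio as it was. It was -0.91 with slide as a block (adjusted p = 0.0356), -1.05 without control 3 (adjusted p = 0.0347), -1.05 without mouse 20 (adjusted p = 0.0291) and -1.20 without the 4 arrays marked for evaluation (adjusted p = 0.0273). Over all 32 alternatives the adjusted p ranged from 0.0273 to 0.69, the highest under median centring. Within slides it was -1.31, -0.37, -1.63 and -0.43 at 75 mg/kg/day and -0.66, -0.59, -1.19 and -1.496 at 25 mg/kg/day. Every one of these 8 within-slide differences was below 0, but both doses were set against the same controls 1 to 4, so the differences are not independent.

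Lmod1 encodes leiomodin 1, which nucleates actin filaments in smooth muscle. Its controls were 0.94, 0.80, 1.02, 1.78 and 2.61, and its mice at 75 mg/kg/day 0.88, 0.87, 1.25, 0.57 and 1.24. Controls 4 and 5 were above every treated mouse, and controls 1 to 3 were not. The differences were -0.61 ± 0.26, -0.30 ± 0.28 and -0.47 ± 0.26 (SE; limma adjusted p = 0.588, 0.716 and 0.383). Without control 5 they were -0.31, -0.00 and -0.17.

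Des encodes desmin, the intermediate filament protein shared by smooth, skeletal and cardiac muscle. Its controls were 0.71, 0.45, 0.11, 1.42 and 3.44, with control 5 the highest of all 19 mice. Mice 16 to 20 at 75 mg/kg/day had 0.79, 0.45, 0.63, 0.15 and 0.61, within the range of the other 4 controls. The differences of -0.75 ± 0.42, -0.36 ± 0.45 and -0.70 ± 0.42 (SE; limma adjusted p = 0.707, 0.803 and 0.427) became -0.20, 0.19 and -0.14 without control 5. The size of the Des difference, and at 50 mg/kg/day its sign, was therefore set by that mouse.

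**Figure D3:**
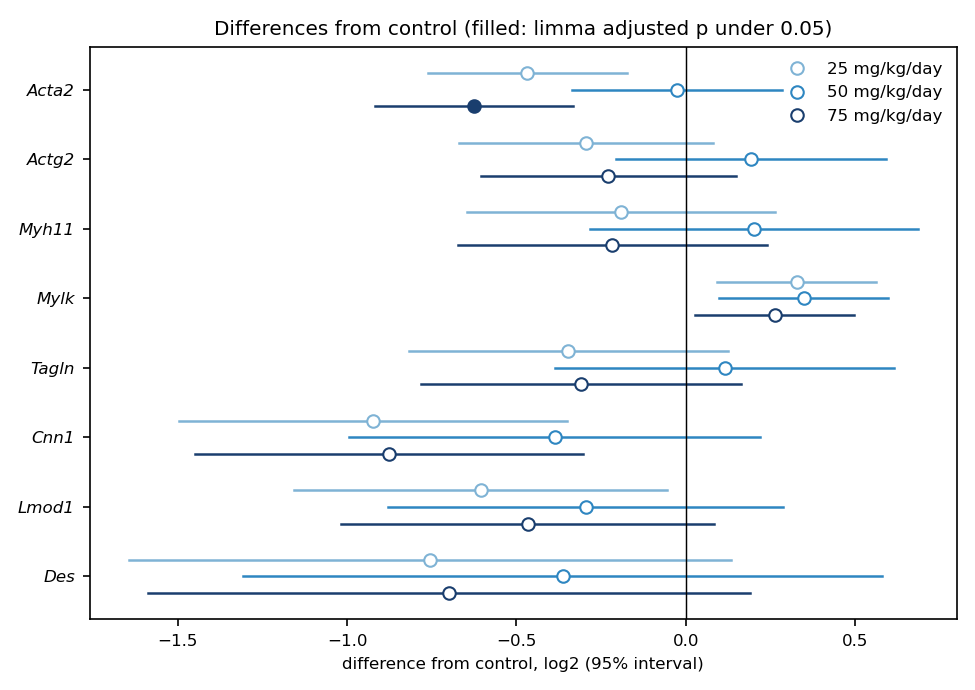
Difference in log2 ratio between each dose and the controls (horizontal axis, 0 is no difference) for the 8 genes, with 95% intervals from limma. Acta2 at 75 mg/kg/day is the filled point (-0.62, limma adjusted p = 0.0139). Under median centring this difference was 0.22, where the median of all genes was 0.35. Mylk is the gene whose 3 points lie above 0 (0.33, 0.35 and 0.26).

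The regulators and partners of these genes were read from lists of pathway genes. Of 20 thin filament and cytoskeletal partners tested, 0 were called at 25 or 75 mg/kg/day, and the medians were 0.06 and 0.10. At an unadjusted p under 0.05 by limma there were 3 and 8 of them, against 7.81% and 17.3% of all genes. Control 5 stood apart on this list. Without it there were 1 lower and 2 higher at 25 mg/kg/day, and 2 lower and 2 higher at 75 mg/kg/day. The share of all genes is not given for that fit. Cnn3, an acidic calponin found outside smooth muscle too, rose at 50 mg/kg/day by 0.64 ± 0.13 (SE, limma adjusted p = 0.0164) and was singled out after its value was seen. It lost the call without mouse 13 or mouse 15 of that dose (adjusted p = 0.0657 and 0.0881) and under median centring. Of 14 genes that control myosin phosphorylation, such as Rock1, Rhoa and the phosphatase subunit Ppp1r12a, 0 were called at any dose. At an unadjusted p under 0.05 by limma there were 3, 2 and 3 of these 14 in dose order, against 7.81%, 12.7% and 17.3% of all genes. Their median at 75 mg/kg/day was 0.12.

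Among 11 receptors and channels of contraction, 1 rose and 1 fell at 75 mg/kg/day. Tbxa2r, the thromboxane receptor that contracts airway and vascular smooth muscle, rose by 0.83 ± 0.17 (SE, limma adjusted p = 0.0069) and kept the call under 32 of 32 alternatives. Ednrb, an endothelin receptor of endothelium and smooth muscle, fell by 1.24 ± 0.22 (adjusted p = 0.00258), and it missed the threshold under median centring alone (adjusted p = 0.0608). Of 9 regulators tested on the SRF and myocardin list, 1 rose at 75 mg/kg/day. That was Foxf1, a forkhead factor of lung mesenchyme and endothelium, at 0.66 ± 0.13 (adjusted p = 0.00447), which missed the threshold with the scanner's processed signals (adjusted p = 0.143). Srf itself differed from control by -0.06 ± 0.17 and Myocd by -0.02 ± 0.11, Myocd being well above background on 7 of the 19 arrays.

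Markers of neighbouring tissue are given beside the members, and their part in the member differences was not tested. The 10 airway epithelial markers had medians of -0.53, 0.06 and -0.46 at the 3 doses in order (-0.32, 0.07 and -0.37 without control 5), and the 12 cardiac muscle markers -1.09, 0.04 and -1.03. Both medians, like those of the members, lay below 0 at 25 and 75 mg/kg/day and near 0 at 50 mg/kg/day. The 12 skeletal muscle markers had medians of -1.46, -1.21 and -1.504, and -0.54, -0.12 and -0.46 without control 5. No marker of these 3 lists was called by limma at any dose. At an unadjusted p under 0.05 there were 2, 0 and 1 airway, 2, 0 and 2 cardiac and 7, 2 and 5 skeletal markers in dose order. The shares of all genes were 7.81%, 12.7% and 17.3%. All 10 airway and all 12 cardiac differences were below 0 at 25 and at 75 mg/kg/day, with or without control 5. All 12 skeletal ones were below 0 at every dose, but without control 5 these were 12, 7 and 11 of 12 in dose order. Without that mouse the limma counts at an unadjusted p under 0.05 were 0, 0 and 0 airway, 1, 0 and 0 cardiac and 3, 1 and 2 skeletal markers. The share of all genes is not given for that fit. The level of the airway list, as the mean log2 ratio of its markers, ranged from 2.72 to 4.85 in controls, 2.53 to 3.32 at 25, 2.85 to 4.61 at 50 and 2.56 to 4.43 at 75 mg/kg/day. That of the cardiac list ranged from 1.27 to 3.34, 0.34 to 1.39, -0.13 to 4.00 and -0.23 to 2.77, so both overlapped between groups. Well above background on all 19 arrays were 6 of the airway, 8 of the cardiac and 3 of the skeletal markers.

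Other cell types of the lung wall followed. The 9 pericyte markers had medians of 0.02, 0.22 and 0.12, with none called. Without control 5 the medians were 0.07, 0.29 and 0.22, and Rgs5, a regulator of G protein signalling singled out after its value was seen, rose at 75 mg/kg/day by 0.57 ± 0.15 (SE, limma adjusted p = 0.0401; 0.37 ± 0.19 and 0.331 with control 5). In all mice their mean ran from 1.09 to 1.68 in controls and from 1.41 to 1.73 at 75 mg/kg/day. The 14 fibroblast markers had medians of -0.01, 0.05 and -0.16, and 1 of them fell at 75 mg/kg/day, the growth factor receptor Pdgfra by 0.42 ± 0.09 (SE, limma adjusted p = 0.0135), which turned to 0.18 under median centring, where the median of all genes was 0.35. Pdgfra lost the call with the mean of its probes (-0.27, adjusted p = 0.13) and without the 4 arrays marked for evaluation (-0.31, adjusted p = 0.0646). The 10 alveolar epithelial markers had a median of -0.14 with none called. Among 10 endothelial markers Cd34, a surface sialomucin, rose at 75 mg/kg/day by 1.26 ± 0.20 (adjusted p = 0.000802), with a list median of 0.24. The 4 airway cartilage markers tested had medians of -0.11, 0.18 and -0.07 at the 3 doses in order, and the 6 mesothelial markers 0.03, -0.02 and -0.20, with none called. Of the 6 actin genes Acta2 alone was called, and the striated muscle actins Acta1 and Actc1 differed from control by -2.04 ± 1.14 and -1.34 ± 0.58 (adjusted p = 0.378 and 0.229), and by -0.51 ± 0.61 and -0.99 ± 0.57 without control 5 (0.713 and 0.386).

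The question of whether the members varied together from mouse to mouse was asked on values minus the mean of their dose group. Each member was set against the mean of the other 7 over the 19 mice, which gave 8 relations with p from 100000 permutations, two-sided and adjusted by Benjamini-Hochberg over the 8. Des followed the others most closely (r = 0.73, rho = 0.84, adjusted permutation p = 0.00136 and 0.00032), and r was 0.71 without the 2 farthest mice. Myh11 (r = 0.66, rho = 0.73), Lmod1 (0.65 and 0.56), Actg2 (0.62 and 0.61), Cnn1 (0.59 and 0.72) and Acta2 (0.56 and 0.54) came next, with adjusted permutation p of r between 0.00635 and 0.0172. Without the 2 farthest mice their r lay between 0.46 and 0.69. Mylk had r = 0.53 (adjusted permutation p = 0.0227) and rho = 0.41 (0.0994), and r dropped to 0.31 without the 2 farthest mice and to 0.37 without control 5. Tagln had r = 0.19 and rho = 0.15 (adjusted permutation p = 0.437 and 0.535).

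With the slide means removed as well, r was between 0.61 and 0.85 for 7 members, including 0.61 for Tagln (adjusted permutation p = 0.0069), and 0.41 for Mylk (0.0807). These permutations treat the adjusted values as exchangeable and do not count the slide means taken out. Members share the array in each mouse, so the relations hold any array-wide shift as well.

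The mean of the 8 members was then set against the mean of each list in the same way. Lists in which control 5 stood apart from all other mice, skeletal muscle and the thin filament partners, were read without it, which left 11 relations over 19 mice. The highest r was that of airway epithelium, with r = 0.80 and rho = 0.85 (adjusted permutation p = 0.00033 and 0.00011), 0.78 without the 2 farthest mice and 0.73 with slide means removed. In controls 1 to 5 the airway mean was 3.43, 3.54, 2.72, 4.85 and 4.01 and the member mean 1.35, 1.09, 0.82, 1.68 and 1.91. Control 3 was lowest and controls 4 and 5 were highest on both. At 75 mg/kg/day mice 16 and 20 had the highest values on both, with airway means of 3.81 and 4.43 and member means of 1.10 and 1.23. The SRF and myocardin list followed (r = 0.77, rho = 0.82, adjusted permutation p = 0.00121 and 0.000275), a list that holds Fhl2, which heart muscle expresses strongly. With slide means removed its r of 0.73 equalled that of airway epithelium to 2 decimals, and under median centring it was the higher (0.97 against 0.79). Under median centring fibroblasts (0.93), pericytes (0.92) and endothelium (0.86), among others, were above airway epithelium too. With slide means removed and without control 5, r was 0.92 for the SRF and myocardin list, 0.90 for cardiac muscle and 0.87 for airway epithelium. Mouse 13 is then alone on its slide and is fitted exactly, so it adds nothing to these r. Cardiac muscle had r = 0.66 and rho = 0.79 (adjusted permutation p = 0.00843 and 0.000367), 0.64 without the 2 farthest mice and 0.57 with slide means removed.

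Pericyte markers had r = 0.57 and rho = 0.45 (adjusted permutation p = 0.0314 and 0.0972), but r was 0.37 without the 2 farthest mice and 0.22 with slide means removed, so that relation rested on those mice and slides. Fibroblast markers had r = 0.29 and rho = 0.35 (adjusted permutation p = 0.34 and 0.201), and endothelium r = -0.03 and rho = -0.02 (0.913 and 0.938). Alveolar epithelium had r = -0.15 and rho = -0.29 (0.649 and 0.279), and mesothelium r = -0.49 and rho = -0.57 (0.0693 and 0.0346). With slide means removed r was -0.70 for endothelium, -0.55 for alveolar epithelium and -0.69 for mesothelium (adjusted permutation p = 0.00272, 0.0293 and 0.00272). Airway cartilage had r = 0.45 and rho = 0.54 (adjusted permutation p = 0.0957 and 0.0424), and r was 0.21 with slide means removed (0.522). Without control 5 the member mean had r = 0.89 with airway epithelium, 0.80 with cardiac muscle, 0.75 with the SRF and myocardin list, 0.65 with airway cartilage and 0.63 with skeletal muscle, over 13 relations and 18 mice. The adjusted permutation p were 0.00013, 0.00039, 0.00204, 0.0105 and 0.0122. The thin filament partners had r = 0.04 (0.892). Under median centring the signs for alveolar epithelium, endothelium and mesothelium turned to r = 0.88, 0.86 and 0.43.

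**Figure D4:**
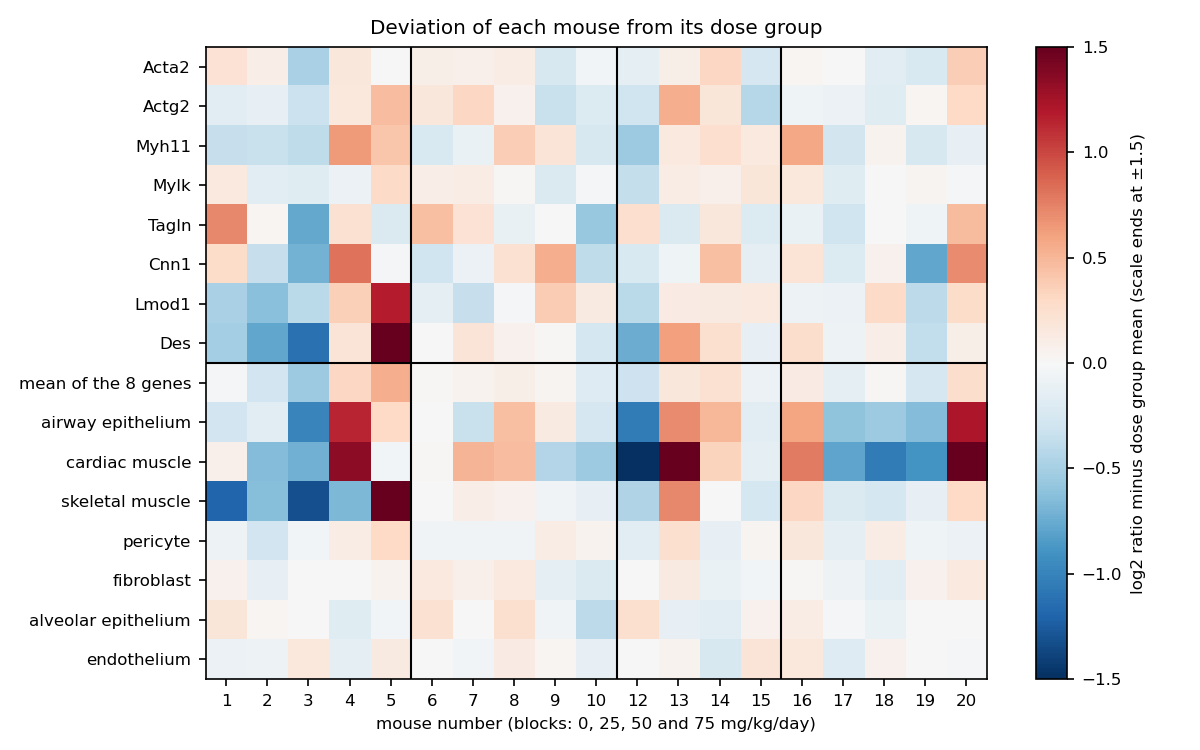
Log2 ratio of each mouse minus the mean of its dose group (colour) for the 8 genes, their mean and 7 marker lists (rows) in the 19 mice (columns, by dose). Mice with high members, such as controls 4 and 5, also stand high for airway epithelium, whose r with the member mean was 0.80, and control 5 stands apart for skeletal muscle.

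Genes whose pattern over the 19 arrays was most like the mean of the 8 members, each centred on its own mean, were found by Pearson r as a description with no test. The 10 highest were Myh4 (0.92), Pde4dip (0.92), Slc2a4 (0.91), Trim54 (0.90), Ttn (0.90), Csrp3 (0.90), Akap6 (0.89), Aqp3 (0.89), Actn2 (0.89) and Nrap (0.89). Myh4 is a fast skeletal myosin, and Ttn, Actn2, Csrp3 and Nrap encode parts of the striated muscle sarcomere. Of the 19 arrays, Actn2 was well above background on 13, Csrp3 on 14, Ttn on 15, and Myh4 and Nrap on 16 each. The member mean was not scaled and holds Des, the member with the largest SD in the controls (1.33). Without control 5, a choice made after its values were seen, the 10 highest were led by Lypd2 (0.93) and Chad (0.93). The others were Mst1 (0.89), Cidea (0.89), Myh4 (0.89), Fndc5 (0.88), Wdr95 (0.88), Pde4dip (0.88), Myh6 (0.88) and Sult1d1 (0.87). Chad encodes a cartilage matrix protein and Myh6 a cardiac myosin. Myh4 and Pde4dip were thus among the 10 highest with and without control 5. Points in these comparisons share the array and its depth.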

How the data were processed

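Lung RNA of 19 mice was measured on 2-colour Agilent arrays. Per the file headers, the deposited spot intensity values came from Agilent's Feature Extraction (version 10.7.3.1). The authors also deposited a table of log2 ratios, of which the sources used here do not state the centring. That table ran in the direction of lung over reference (r from 0.995 to 0.998 with ratios computed from the intensities; column medians from -0.05 to -0.04) and served as an alternative.

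Median spot intensities were background-corrected with normexp (offset 50, which compresses dim spots) and loess-normalized within each array in limma 3.58.1 under R 4.3.3. Control spots were left out, as were spots marked as outliers (0.29%), and 0 were saturated. Replicate spots were averaged by probe. Probes were named by RefSeq accession (23374 of 41174; GRCm38.p6), kept if well above background in lung on at least 4 arrays (24501), and reduced to the brightest per symbol, or per accession where no symbol was found (12324 and 6991, together the 19315 genes tested). Missing values numbered 23.

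Groups came from the labels. Group means were fitted with limma (lmFit and eBayes) over all genes with Benjamini-Hochberg adjustment at 0.05. Slopes on dose, within-slide values and permutation tests of correlation were added. The alternatives were other background, normalization, filter, probe and channel choices, slide or scan day as a block, array weights, and leaving out arrays. The fit was tested on simulated data. All members are named. Of the other lists, genes past the threshold at 75 mg/kg/day are named, at most 3 per list and direction. The members and lists were chosen with earlier results of these data known.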

Additional observations from a re-analysis of the deposited data

Results flagged for a closer look

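In 104 groups of 4 or 5 mice (12 member probes and the marker list means at each dose), 10 held a mouse whose gap to the next was large against the range of the group. Chance gives about 1 in 20 for independent groups, but these groups share mice and in part genes, so the 10 are not independent. Control 5 was the highest control on Acta2 probe A_51_P450957 (1.36, others -1.43 to -0.81) and for the means of the actin family (1.29, others -0.61 to -0.25), skeletal muscle (4.56, others -0.58 to 0.10) and thin filament partners (0.85, others 0.48 to 0.51). Mouse 12 at 50 mg/kg/day, whose array was marked for evaluation, was the lowest of its group for Lmod1 (0.73, others 1.26 to 1.29), Myh11 (2.88, others 3.57 to 3.68) and the thin filament mean (0.55, others 0.67 to 0.67). Mouse 9 at 25 mg/kg/day was lowest on Mylk probe A_52_P575217 (2.65, others 2.87 to 2.94). The airway cartilage mean was highest in mouse 13 at 50 mg/kg/day (1.25, others 0.26 to 0.40) and in control 4 (0.72, others 0.23 to 0.35). The causes were not tested.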

How the results depend on the processing

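No paired analysis was possible because the groups share no mouse numbers; slides, which groups do share, were fitted as a block instead. The count of members called stayed at 0 for the lowest and the middle dose, for the highest minus the lowest and for the slope under every alternative run. At 75 mg/kg/day it was 0 under median centring and 2 (Acta2 and Cnn1) with Feature Extraction's processed signals, slide as a block, scan day as a block, array weights or without the 4 arrays marked for evaluation; it ranged from 1 to 2 with 1 mouse left out. Acta2 at 75 mg/kg/day kept its call under 31 of 32 alternatives, all but median centring; scaling between arrays (Aquantile) is among the 31 but cannot change a ratio.

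Median centring moved the median of all genes to 0.15, 0.14 and 0.35 at the 3 doses. It turned the sign of Tagln at 25 (0.00040), Acta2 at 50 (0.29) and, at 75 mg/kg/day, Acta2 (0.22), Actg2 (0.37), Tagln (0.50), Myh11 (0.19) and Pdgfra (0.18). Slopes, with the median of all genes at 0.11, turned for Acta2 (0.10), Actg2 (0.15), Tagln (0.19), Myh11 (0.093) and Lmod1 (0.029). Relative to the shifted median, 7, 3 and 5 of 8 members lay below at 25, 50 and 75 mg/kg/day. At 50 mg/kg/day the sign also turned for Acta2 with the authors' deposited values (0.021) and the lung channel alone (0.030), and with processed signals for Actg2 (-0.12), Tagln (-0.0069) and Myh11 (-0.0025). The Actg2 slope turned with slide (0.0018) or scan day (0.0067) as a block.

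With 1 mouse left out, Acta2 at 50 mg/kg/day ranged from -0.15 to 0.060, Tagln from -0.078 to 0.29 and Des from -0.64 to 0.19 (the last without control 5). The slope ranged from -0.045 to 0.010 for Actg2, from -0.101 to 0.0023 for Tagln and from -0.066 to 0.014 for Myh11.

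For correlations, removing slide means gave r of 0.61 for Tagln, 0.41 for Mylk, -0.55 for alveolar epithelium, -0.70 for endothelium, -0.69 for mesothelium and 0.22 for pericytes. Median centring gave 0.81 for Tagln, 0.68 for airway cartilage, 0.88 for alveolar epithelium, 0.89 for receptors and channels, 0.88 for control of myosin phosphorylation, 0.86 for endothelium, 0.93 for fibroblasts, 0.43 for mesothelium and 0.92 for thin filament partners. Without control 5, chosen after seeing the data, r was 0.37 for Mylk, 0.65 for airway cartilage, -0.034 for control of myosin phosphorylation and 0.38 for pericytes. These causes were not tested. At most 5 mice per group and 1 array per mouse limit all of these values.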
